A study of Mus musculus with 9 samples.

Results

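The genes described here are Pramel37, Pramel39 and Nlrp4g, 3 mouse genes of families known from germ cells and early embryos, measured in the abdominal aorta. They were taken as every probe whose RefSeq accession maps to 1 of these symbols, which gave 3 probes and 3 genes of the 112 genes that the array names through RefSeq. Each probe was spotted once per array: Pramel37 by accession NM_198667, Pramel39 by NM_177913 and Nlrp4g by NM_001004145. The genes were chosen with their values on these arrays known, so their levels and differences are a description and carry no test.

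The study profiled coding and long noncoding RNA of male mouse abdominal aorta on Agilent arrays of 1 colour, with 9 arrays in 3 groups of 3. Control arrays carry RNA of aortas labelled wild type and control. CaPO4 arrays carry RNA after calcium phosphate, a chemical that is applied to the vessel to produce an abdominal aortic aneurysm. Naringenin arrays carry RNA of mice that the design text describes as having an aneurysm and receiving naringenin, a citrus flavonoid. That this aneurysm was also produced with CaPO4 is not stated in the labels. The design text says that 5 aortas were mixed for each group, and nothing says whether the arrays of a group came from separate animals, separate pools or 1 pool. The standard errors and p-values therefore measure the spread between arrays, which may be technical. Strain, age, dose and time of treatment are not given in the sources used here.

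Pramel genes encode leucine-rich repeat proteins related to human PRAME, a cancer-testis antigen that acts as a substrate receptor of cullin ubiquitin ligases. In the mouse the family has expanded into clusters of closely similar copies, and most studied members are read in testis, oocytes or early embryos. Nlrp4 genes encode proteins with a pyrin domain, a nucleotide-binding NACHT domain and leucine-rich repeats, and the mouse copies are known chiefly from oocytes and cleavage-stage embryos. Neither family is a usual marker of the vessel wall. The RefSeq gene table for GRCm38 holds 49 Pramel and Prame genes, 25 of them on chromosome 4 and 18 on chromosome 5, and 7 Nlrp4 genes, 5 of them on chromosome 7. Pramel37 and Pramel39 belong to the chromosome 5 cluster and Nlrp4g is the only Nlrp4 gene of the table on chromosome 9.

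Pramel37 and Pramel39 moved together on these arrays, so their promoters are shown side by side. The windows run from 250 bases before to 50 bases after the gene start, 5′ to 3′, from RefSeq on GRCm38.p6. Pramel37 lies on the minus strand at chr5:94070496-94070795 and Pramel39 on the minus strand at chr5:94306747-94307046. Capitals mark the bases that have no identical partner in the other window.
Pramel37: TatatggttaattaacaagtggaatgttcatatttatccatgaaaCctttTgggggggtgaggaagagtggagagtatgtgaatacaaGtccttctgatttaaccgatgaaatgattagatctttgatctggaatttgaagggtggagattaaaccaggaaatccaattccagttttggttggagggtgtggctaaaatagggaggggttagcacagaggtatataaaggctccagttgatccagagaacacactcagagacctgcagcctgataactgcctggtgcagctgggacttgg
Pramel39: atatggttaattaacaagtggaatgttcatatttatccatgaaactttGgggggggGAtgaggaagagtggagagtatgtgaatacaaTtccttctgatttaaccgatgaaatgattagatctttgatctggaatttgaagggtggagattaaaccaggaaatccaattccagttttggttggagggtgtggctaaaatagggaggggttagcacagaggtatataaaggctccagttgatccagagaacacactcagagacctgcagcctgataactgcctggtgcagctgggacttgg

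The promoter windows are nearly the same sequence. An alignment held 296 identical columns of 302, or 98.0%, with the substitutions T51G and G89T, counted from 1 at the 5′ end of the Pramel37 window and with the Pramel37 base first, and 2 unpaired bases in each window. The 26 Pramel promoters on other chromosomes reached 49.7% to 59.3% identity with Pramel37 and 49.9% to 59.8% with Pramel39. Promoters of genes outside the family also lay in this range, such as Il13ra2 at 56.4% with both and Smc5 at 55.6% with Pramel37. Identity in this range is therefore not particular to Pramel genes. Some other copies of the chromosome 5 cluster were as alike and others were not. The Pramel50 window was 100% identical to that of Pramel37, and the Pramel43 window was 97.4% identical to it and 98.7% identical to that of Pramel39. Of the 32850 other promoters in the table, 3 were at least 90% identical to Pramel37 and 5 to Pramel39, and all of these were Pramel genes of chromosome 5. The median over the 11 other Pramel promoters of chromosome 5 was 55.7% for Pramel37 and 56.3% for Pramel39, which lies within the range on other chromosomes.

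The same short motifs stood at the same places. Both strands were searched, and positions count from the gene start, with the first base after it as 1. TATAAA, the core of a TATA box, occurred once in each window on the gene's strand, at position -28 in both, and 13.6% of all 32851 promoters of this length hold it. TAATTA, a homeodomain core that is its own reverse complement, occurred once, at -242 in Pramel37 and -243 in Pramel39, and is held by 5.29% of promoters. TAATTG, another homeodomain core, occurred in neither window and is held by 8.0%. CANNTG, the E-box, occurred 3 times in each window, at -17 and 37 in both and at -235 in Pramel37 and -236 in Pramel39, and is held by 72.3%. A match is a run of letters and not a measured binding site.

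The probe letters are not in the files used here, so whether the Pramel37 and Pramel39 probes separate these genes from their near copies was not tested. No other Pramel gene and no other Nlrp gene is named on the array, so the rest of both families was not analysed here. In the order of genes on GRCm38, Pramel38 and Pramel40 lie between Pramel37 and Pramel39. Pramel39 overlaps Pramel40, which is read from the opposite strand, and Pramel37 overlaps Gm6351. Whether a probe also reads the overlapping gene was not tested, and the values below are uncertain to that extent.

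Several facts of the arrays bear on the levels below. Between 37.1% and 57.7% of the 59709 probes were well above background on 8 arrays, and 84.1% on naringenin 3. Over 18743 probes well above background on all arrays, CaPO4 2 correlated at 0.972 with naringenin 1 and naringenin 2, and at 0.821 and 0.828 with CaPO4 1 and CaPO4 3. Thus 1 library labelled CaPO4 stands with the naringenin arrays, and each result that rests on it is also given without it. The controls were scanned together as scan 1, naringenin 3 alone as scan 2, and the other 5 arrays as scan 3. Scan and group therefore cannot be told apart for any comparison with the controls. The labelled tissue could not be checked, since none of 8 smooth muscle, 6 endothelial and 6 macrophage markers is named on the array.

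Pramel37 and Pramel39 were detected on the same 4 arrays. Both probes were well above background, by the scanner's own test of the spot against its background, on CaPO4 2 and on naringenin 1, 2 and 3. Neither was well above background on any control, on CaPO4 1 or on CaPO4 3. This pattern over the 9 arrays was shown by 1922 of 59709 probes, or 3.22%, and by 14 of the 123 RefSeq probes. The other 12 RefSeq probes were Gm10487, Gm10488, Gm10665, Gm14819, Gm16367, Gm20736, Gm20815, Ott, Tdpoz5, Vmn1r187, Vmn1r243 and Vmn1r93. Of the 14 genes, 4 lie on chromosome X, 4 on chromosome 7, 3 on chromosome 5, 2 on chromosome Y and 1 on chromosome 3. Nlrp4g was well above background on 9 of 9 arrays.

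The unscaled intensities show how dim the Pramel spots were. For Pramel37, the controls read 4.89, 9.70 and 6.55, the CaPO4 arrays 3.29, 70.9 and 12.1, and the naringenin arrays 110.9, 103 and 148, each in the order of replicates 1 to 3. The values on control 1 and CaPO4 1 are the lowest value the scanner assigns on those arrays, so they mark only the floor. Pramel39 read 4.89, 14.2 and 15.9 on the controls, 9.31, 101 and 11.3 on CaPO4, and 147, 161 and 244 on naringenin, with control 1 at the floor. The error that the scanner gives for a spot was about as large as the signal at the floor (100% for Pramel37 on control 1) and 10.1% to 11.1% of it for Pramel37 on the 4 arrays where it was detected. On those arrays both Pramel genes were above the 99th percentile of the 1508 negative control spots, except on naringenin 3, where that percentile was 266, against 17.2 to 66.1 on the other arrays.

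Nlrp4g was far brighter than the floor throughout. It read 499.96, 539 and 496 on the controls, 176, 131 and 155 on CaPO4, and 147, 159 and 526 on naringenin, each with a spot error close to 10% (10.0% to 10.4%). Without scaling, naringenin 3 falls within the range of the controls and the other naringenin arrays do not. Naringenin 3 was also the brightest array, with a 75th percentile of 239 against 43.7 to 120 on the others.

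**Figure D1:**
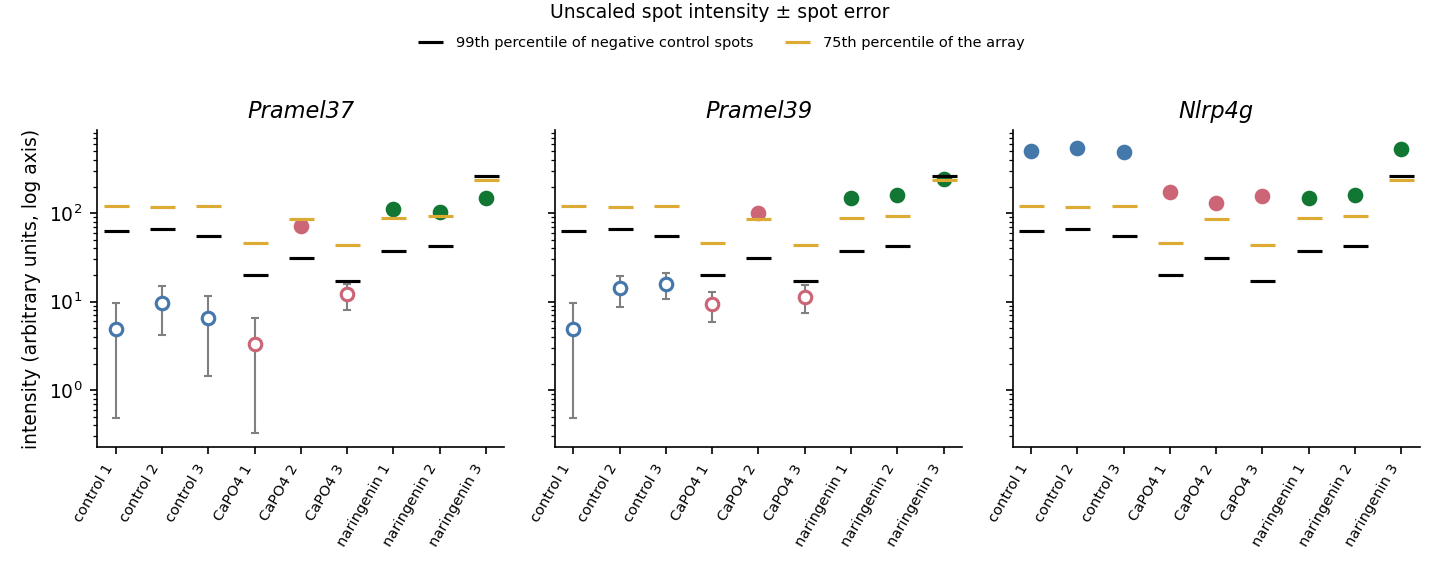
Unscaled spot intensity (arbitrary units, log axis) of Pramel37, Pramel39 and Nlrp4g on each of the 9 arrays, with the scanner's spot error as bars. Filled points are well above background. Black dashes give the 99th percentile of negative control spots and yellow dashes the 75th percentile of the array. The Pramel spots of naringenin 3, at 148 and 244, lie below the black dash at 266.

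Levels from here on are log2 intensities from which the log2 of that array's own 75th percentile was subtracted, so a level of 0 is as bright as the 75th percentile. Levels are compared between arrays for 1 probe and not between probes. Pramel37 had levels of -4.62, -3.62 and -4.19 on the controls, -3.79, -0.26 and -1.86 on CaPO4, and 0.32, 0.14 and -0.70 on naringenin. Its mean level was -4.14 ± 0.50 (SD, n = 3) in controls, -1.97 ± 1.77 (SD, n = 3) in CaPO4 and -0.08 ± 0.54 (SD, n = 3) in naringenin. The order from low to high was control, CaPO4, naringenin. Every naringenin array was above every control. The CaPO4 arrays spanned from within the control range to just above naringenin 3, so they overlapped both other groups.

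Pramel39 followed the same course. Its levels were -4.62, -3.06 and -2.91 on the controls, -2.29, 0.25 and -1.95 on CaPO4, and 0.73, 0.78 and 0.03 on naringenin. The means were -3.53 ± 0.94 (SD, n = 3), -1.33 ± 1.38 (SD, n = 3) and 0.51 ± 0.42 (SD, n = 3). The order of the groups was again control, CaPO4, naringenin. The CaPO4 arrays all lay above the controls, but CaPO4 1 and CaPO4 3 were not well above background, and CaPO4 2 lay between naringenin 3 and naringenin 1.

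Nlrp4g ran the opposite way. Its levels were 2.06, 2.18 and 2.05 on the controls, 1.95, 0.63 and 1.83 on CaPO4, and 0.73, 0.76 and 1.14 on naringenin. The means stood in the order control, 2.10 ± 0.07 (SD, n = 3), CaPO4, 1.47 ± 0.73 (SD, n = 3), and naringenin, 0.87 ± 0.23 (SD, n = 3). The controls were tight and above every other array. CaPO4 1 and CaPO4 3 were just below the controls, and CaPO4 2 was the lowest of all 9 arrays, below each naringenin array.

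**Figure D2:**
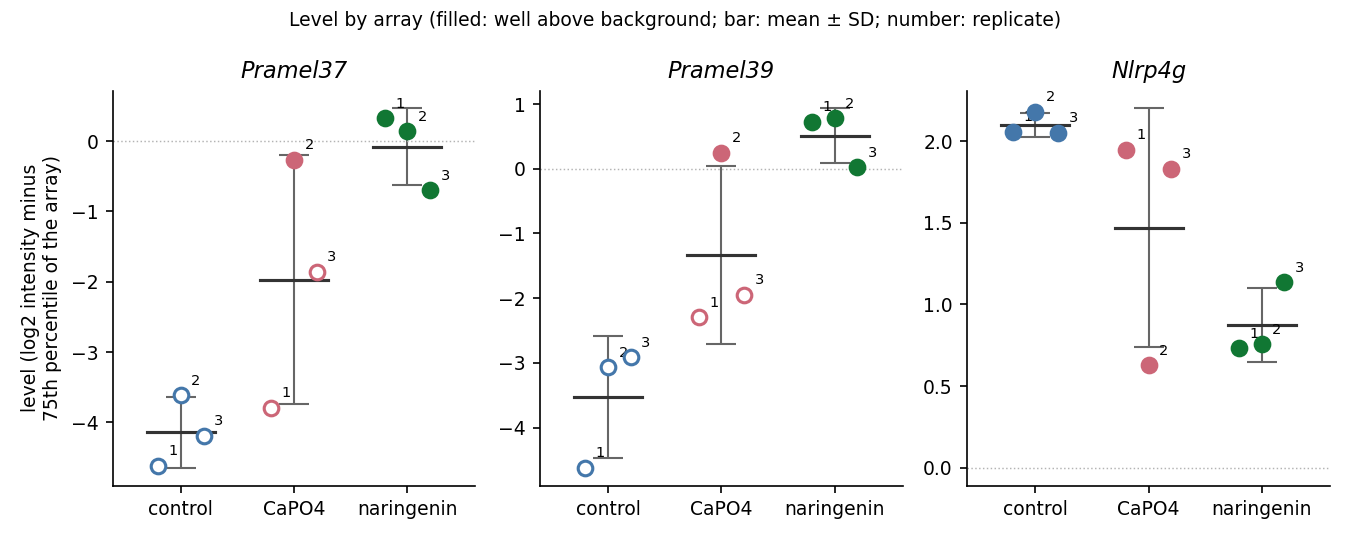
Level of each gene on the 9 arrays (log2, relative to the 75th percentile), by group, with the replicate number beside each point and the mean ± SD as bars. Filled points are well above background. CaPO4 2 sits beside the naringenin arrays for all 3 genes, at -0.26, 0.25 and 0.63.

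The first comparison, CaPO4 against control, asks what the aneurysm treatment changed in the vessel. Pramel37 was higher after CaPO4 by 2.17 ± 0.75 (SE, n = 3 per group) on the log2 scale and Pramel39 by 2.20 ± 0.68 (SE), from 0 control arrays and 1 CaPO4 array well above background. With 5 of the 6 arrays not well above background, no fold is given for either Pramel gene. Nlrp4g was lower by 0.63 on the log2 scale (SE 0.39). The groups did not overlap for Pramel39 (higher) and Nlrp4g (lower), against 22.9% of all probes that did not overlap upwards and 25.6% downwards, and they overlapped for Pramel37. For Pramel39 this separation is one of scaled values that were not well above background, apart from CaPO4 2. Unscaled, CaPO4 1 and CaPO4 3 (9.31 and 11.3) lay below control 2 and control 3 (14.2 and 15.9), and the groups overlapped. Over all 37307 probes with a value in both groups, limma called 21.4% at an adjusted p under 0.05 (10.1% higher, 11.3% lower), and the median difference was -0.04.

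These differences rest on CaPO4 2, without which limma called 31.5% of all probes. When it is left out, Pramel37 and Pramel39 are detected on none of the remaining CaPO4 and control arrays, so neither a direction nor a size is given for them. Nlrp4g was then lower by 0.21 on the log2 scale (SE 0.23), a difference smaller than its SE. Without scaling, where the median of all probes was -1.15, the differences on all arrays were 1.06 ± 0.88 (SE) for Pramel37, 1.09 ± 0.84 (SE) for Pramel39 and -1.74 ± 0.55 (SE) for Nlrp4g.

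The second comparison, naringenin against CaPO4, asks what the treatment changed in the aneurysm. Pramel37 was higher in naringenin by 1.89 ± 0.75 (SE, n = 3 per group) and Pramel39 by 1.84 ± 0.68 (SE) on the log2 scale, with 3 naringenin arrays and 1 CaPO4 array well above background. Nlrp4g was lower by 0.59 (SE 0.39), but without scaling it was higher by 0.59, where the median of all probes was higher by 1.30. All 3 genes overlapped between the groups, where 12.6% of probes did not overlap upwards and 11.6% downwards. Over all 37498 probes, limma called 2.18% at an adjusted p under 0.05 (0.816% higher, 1.36% lower), and the median difference was 0.12. This share moved from 0.0987% without CaPO4 3 to 45.6% without CaPO4 2.

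The library CaPO4 2 moved this comparison too. Without it, Pramel37 was higher by 2.75 and Pramel39 by 2.63 on the log2 scale, and Nlrp4g was lower by 1.01. That fall of Nlrp4g is one of scaled levels. Unscaled, it read 176 and 155 on CaPO4 1 and CaPO4 3, and 147, 159 and 526 on naringenin, so the groups overlapped. No CaPO4 array then detected a Pramel gene. With each of them set at the level of its dimmest probe well above background, this was 2.40-fold for Pramel37 and 3.62-fold for Pramel39. These folds hold for this background treatment and are not a minimum under others. Within scan 3, which holds the 3 CaPO4 arrays and naringenin 1 and 2, the differences were 2.20 for Pramel37, 2.08 for Pramel39 and -0.73 for Nlrp4g.

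The third comparison, naringenin against control, joins both steps and shares its arrays with the comparisons above. Pramel37 was higher in naringenin by 4.06 ± 0.75 (SE, n = 3 per group) on the log2 scale and Pramel39 by 4.04 ± 0.68 (SE). The controls give only a bound, set on each control at the level of the dimmest probe that was well above background. Against it this was 4.43-fold for Pramel37 and 6.67-fold for Pramel39, which holds for this background treatment and is not a minimum under others. Nlrp4g was lower by 1.22 (SE 0.39), which is 2.33-fold. In scaled levels none of the 3 genes overlapped between the groups, where 33.9% of all probes did not overlap upwards and 34.0% downwards. Unscaled, Nlrp4g overlapped, since naringenin 3 (526) lay within the controls (496 to 539). Its difference without scaling was -1.15 ± 0.55 (SE). Over 37307 probes limma called 45.9% at an adjusted p under 0.05 (22.7% higher, 23.2% lower), and the median difference was 0.03. Differences between these groups were thus common on the array.

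CaPO4 2 is in neither group of this comparison, so the differences are the same without it. The spread of the fit is shared by the 3 groups, however, and does rest on it. Without CaPO4 2 the SE was 0.52 for Pramel37, 0.45 for Pramel39 and 0.21 for Nlrp4g. Of all probes, limma then called 61.2% at an adjusted p under 0.05 (31.3% higher, 29.9% lower). Leaving out each control and naringenin array in turn gave 3.83 to 4.37 for Pramel37, 3.50 to 4.35 for Pramel39 and -1.35 to -1.15 for Nlrp4g. The size of the Pramel differences depended on how the floor was treated. With normexp background correction and an added offset, which lifts and compresses dim spots, they were 1.25 for Pramel37 and 1.51 for Pramel39. Put on the same scale, both differences are smaller than the folds given against the bound.

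**Figure D3:**
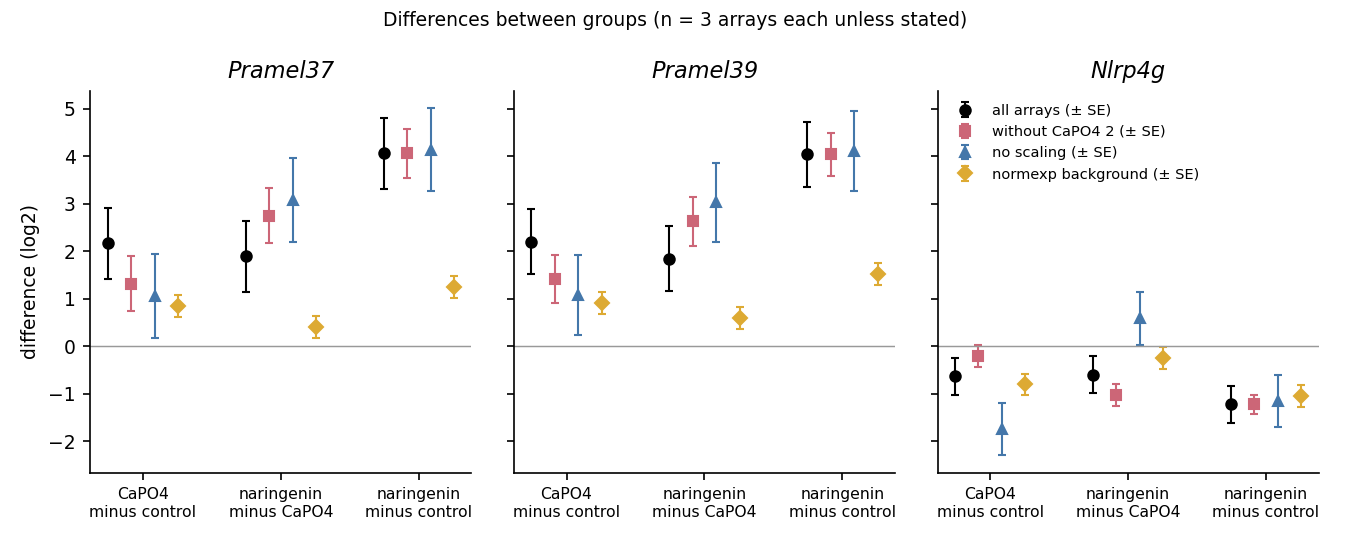
Difference in level (log2, ± SE of the limma fit) of each gene in the 3 comparisons, with all arrays, without CaPO4 2, without scaling and with normexp background correction. The Pramel genes lie above 0 under all 4 settings, although without CaPO4 2 no array of CaPO4 minus control detected them, and Nlrp4g lies below 0 except for naringenin minus CaPO4 without scaling, at 0.59.

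Pramel37 and Pramel39 also resembled each other across all 9 arrays. After each gene's mean was removed, their levels differed by a root mean square of 0.49 on the log2 scale (Pearson r 0.97 as a description over 9 arrays that share group, scan and scaling). The median over 36923 probes was 1.94 against Pramel37 and 1.90 against Pramel39. Nlrp4g differed from them by 2.48 and 2.43.

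The named genes closest to the Pramel genes by this measure were copies of uncertain identity. Among 103 RefSeq genes other than the 3 described, the closest to Pramel37 were Gm20736 (0.51), Gm20865 (0.52) and Gm16367 (0.55), and the closest to Pramel39 were Gm20865 (0.35), Gm20736 (0.48) and Gm20852 (0.52). Gm20736, Gm20865 and Gm20852 are predicted genes of chromosome Y and Gm16367 of chromosome 5. Among 2519 lincRNA elements, the closest to both was MM9LINCRNAEXON10979- (0.30 for Pramel37 and 0.48 for Pramel39). Next came MM9LINCRNAEXON11111- (0.58) and MM9LINCRNAEXON10619- (0.59) for Pramel37, and MM9LINCRNAEXON10619- (0.50) and MM9LINCRNAEXON11240- (0.56) for Pramel39.

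The differences of Nlrp4g from its closest probes were smaller, but so was the median over 36923 probes, at 0.95. Pearson r with its 3 closest RefSeq genes was 0.94, 0.99 and 0.78, against 0.96 to 0.98 for those of the Pramel genes. The closest RefSeq genes were Nono (0.21), which encodes an RNA-binding protein of paraspeckles and lies on chromosome X, G6pd2 (0.34), an autosomal copy of the glucose-6-phosphate dehydrogenase gene, and Gm21953 (0.41). The closest lincRNA elements were humanlincRNA0132+ (0.090), MM9LINCRNAEXON10296+ (0.15) and MM9LINCRNAEXON10745- (0.16).

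The array names 2 genomic neighbours of Nlrp4g, of which 1 rose in naringenin against control, as did 22.7% of all probes. These neighbours were looked up after the values of Nlrp4g were seen. Nlrp4g lies near the end of chromosome 9 with 5 genes after it in the GRCm38 order, of which 4930526I15Rik, a long noncoding RNA gene, and Ppp2r3d, which encodes a regulatory subunit of protein phosphatase, are on the array. The probe of 4930526I15Rik for NR_015516 had levels of -0.34, -0.10 and -0.08 on the controls, -0.16, 2.46 and 0.00 on CaPO4, and 2.88, 2.90 and 1.35 on naringenin. It rose against control in naringenin by 2.55 (limma adjusted p = 0.0131), and the probe for NR_027950 rose by 3.03 (limma adjusted p = 0.00502). The unscaled intensities of the NR_015516 probe were 95.0 to 113.5 on the controls and 609.5 to 704 on naringenin. CaPO4 2 was again the CaPO4 array that stood with naringenin. The 3 probes of Ppp2r3d were dim, with mean levels from -2.33 to -1.28 over the groups, and their differences in naringenin from control, 0.73 to 0.77, did not pass (limma adjusted p = 0.131 to 0.165).

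Other germline genes on the array were read from lists of oocyte and early embryo genes and of testis and sperm genes. In naringenin against control, 4 of 5 testis and sperm genes rose and none fell, beside 22.7% of all probes that rose. Without CaPO4 2, 5 of 5 rose, where 31.3% of all probes did. Without CaPO4 1, 5 of 5 rose, where 22.5% of all probes did. The gene added in both settings was H2al2b. It reached the filter of at least 3 arrays well above background only because of the naringenin arrays, so its rise adds no support. The 5 genes of the list had a median difference of 2.93 on the log2 scale, against 0.03 over all probes tested. Ssty2, a multicopy chromosome Y gene read in spermatids, had levels of -0.55, -0.57 and -0.86 on the controls, 0.89, 2.81 and 0.65 on CaPO4, and 3.41, 3.35 and 2.19 on naringenin. It rose by 3.64 ± 0.57 (SE, limma adjusted p = 0.00140), and its relative Ssty1 by 2.86 ± 0.49 (SE, limma adjusted p = 0.00197). All naringenin arrays but naringenin 3 were above CaPO4 2 in Ssty2, and CaPO4 2 was above CaPO4 1 and CaPO4 3.

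The rest of that list also holds genes of spermatids and sperm. Sly, a chromosome Y gene whose product acts on sex chromosome genes in spermatids, rose by 3.12 ± 0.70 (SE, limma adjusted p = 0.00607). Btbd35f4, of a multicopy chromosome X family with a BTB domain, rose by 2.93 ± 0.35 (SE, limma adjusted p = 0.000640), with 2 of 3 controls well above background. H2al2b, a histone H2A variant of sperm, differed by 1.19 ± 0.47 (SE, limma adjusted p = 0.0622), with 1 of 3 controls well above background. It passed without CaPO4 2 (limma adjusted p = 0.00561) and without CaPO4 1 (limma adjusted p = 0.0450). Its difference was the same there, and only the spread shared by the groups had changed. Without scaling H2al2b did not pass (limma adjusted p = 0.211). Since it met the filter only because of the naringenin arrays, its calls are not independent of the filter and add no support. Ssty1, Ssty2 and Sly have near-identical copies, and which copy each probe read was not tested.

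The list of oocyte and early embryo genes was thinner. The array names 3 of them, and 2 passed the filter of being well above background on at least 3 arrays. Tcstv1, read in cleavage-stage embryos, rose in naringenin against control by 2.68 ± 0.64 (SE, limma adjusted p = 0.00787). Its levels were -0.57, -0.51 and -0.57 on the controls, 0.27, 2.96 and 0.21 on CaPO4, and 2.02, 1.92 and 2.47 on naringenin. CaPO4 2 was thus the highest array for Tcstv1. Its relative Tcstv3 differed by 0.64 ± 0.59 (SE, limma adjusted p = 0.393), and Obox2, an oocyte homeobox gene, was well above background on naringenin 3 alone.

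In CaPO4 against control, 2 of 5 testis and sperm genes rose and none fell, where 10.1% of all probes rose. They were Ssty2, by 2.11 ± 0.57 (SE, limma adjusted p = 0.0281), and Btbd35f4, by 2.12 ± 0.35 (SE, limma adjusted p = 0.00521). The median of the 5 was 1.46, against -0.04 over all probes. Of the 2 oocyte and early embryo genes, limma called 0, and 1 had an unadjusted p under 0.05, as had 37.6% of all probes. The Ssty2 call was lost without each control in turn (differences 2.01 to 2.17, limma adjusted p = 0.0786 to 0.0863) and with normexp (difference 1.38, limma adjusted p = 0.0667). Both calls were lost without scaling, where Ssty2 differed by 0.999 (limma adjusted p = 0.301) and Btbd35f4 by 1.00 (limma adjusted p = 0.186). Ssty1, which differed by 1.46 (limma adjusted p = 0.0590), passed with scaling to the array median (0.0362), with quantile normalization (0.0382), without CaPO4 1 (0.0468) and without CaPO4 2 (0.0464).

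In naringenin against CaPO4, limma called 0 of the 5 testis and sperm genes and 0 of the 2 oocyte and early embryo genes, while 5 and 0 of them had an unadjusted p under 0.05, as had 26.9% of all probes. The median differences were 1.53 and 0.30, against 0.12 over all probes. Without CaPO4 2, 5 of 5 testis and sperm genes and 1 of 2 oocyte and early embryo genes rose, from Sly at 2.81 (limma adjusted p = 0.000333) to Btbd35f4 at 0.96 (limma adjusted p = 0.0411), and so did 25.6% of all probes under this setting. H2al2b, 1 of these 5, was then well above background on neither CaPO4 array. It passed the filter only because of the naringenin arrays, so its rise is not independent of the filter and adds no support. Sly was well above background on 1 of 2 CaPO4 arrays. In CaPO4 against control without CaPO4 2, 3 testis and sperm genes rose, and Tcstv1 rose by 0.79 (limma adjusted p = 0.0387), where 14.1% of all probes rose and 17.4% fell. H2al2b was also called lower there, but it was well above background on 1 of 3 controls and neither CaPO4 array, so no size is given. The differences of Tcstv3 in CaPO4 against control (1.02) and in naringenin against CaPO4 (-0.38) changed sign without scaling (-0.09 and 0.80). Without CaPO4 2 they were 0.24 and 0.39, so that the second changed sign there too.

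**Figure D4:**
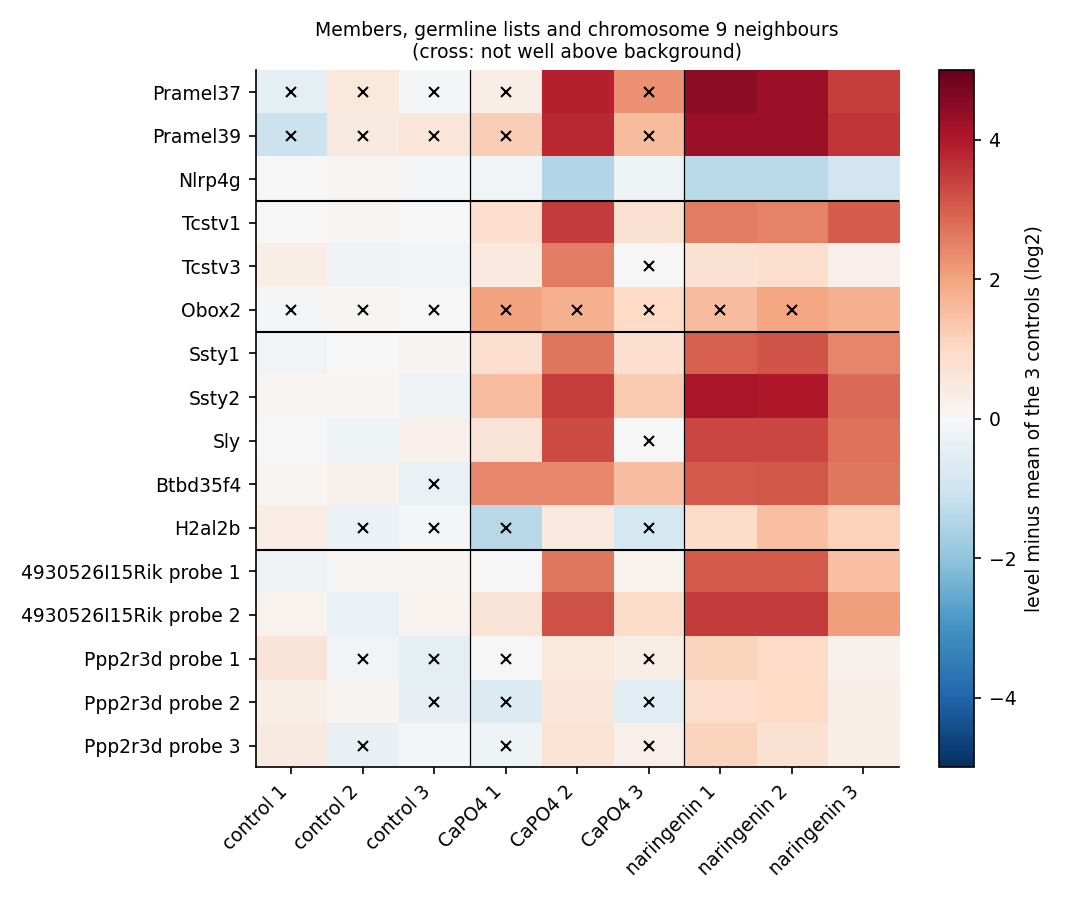
Level minus the mean of the 3 controls (log2, colour) on the 9 arrays for the 3 genes, for the germline genes of the lists and for the neighbours of Nlrp4g on chromosome 9, with a cross where the probe was not well above background. Red is above and blue below the controls. CaPO4 2 has the colours of the naringenin arrays in most lines, and Nlrp4g is the line that turns blue there.

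Markers of other cell types moved over the same arrays. Amy2a5, pancreatic amylase, is the only 1 of 34 acinar markers named on the array, and had levels of 0.10, 0.54 and 0.70 on the controls, 2.03, 11.05 and 2.04 on CaPO4, and from 9.93 to 11.12 on naringenin. It was thus high on exactly the 4 arrays that detected Pramel37 and Pramel39 and on which the scaled level of Nlrp4g was lowest. Unscaled, Nlrp4g was not lowest on all of them. It read 526 on naringenin 3, within the range of the controls, and 159 on naringenin 2, above CaPO4 3 at 155. Ccl21b and Ccl21c, chemokine copies made by lymph node stroma and lymphatic vessels, are 2 of 6 markers of those cells on the array. Ccl21b lay from 4.93 to 5.05 on the controls, at 7.58 and 7.70 on CaPO4 1 and CaPO4 3, at 9.65 on CaPO4 2 and from 8.51 to 9.59 on naringenin. Ssty1 and Ssty2, given above, are 2 of 10 male germ cell markers, and 0 of 7 oocyte markers are named. In RNA of whole tissue, more cells of a type and more RNA per cell cannot be told apart. The part of other cell types in the Pramel and Nlrp4g differences was not tested.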

How the data were processed

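The deposited scanner files hold 1 spot per line with the intensity gProcessedSignal, which the authors obtained with Agilent Feature Extraction 11.0.1.1, per the file headers and the submitters' processing notes, which subtracts the background and replaces the dimmest spots by a floor. A deposited table holds the same intensity values on a linear scale, with its largest difference from the scanner values at 0.0999%. Of 59994 spots outside controls, outlier spots were left out, log2 intensity minus the array's 75th percentile was taken and spots of a probe were averaged, giving 59709 probes. The number of arrays limits the precision.

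Symbols came from the RefSeq gene table, with 116 of 123 accessions matched. A probe was tested if well above background (in at least 50% of its spots) on at least 3 of 9 arrays. limma 3.58.1 in R 4.3.3 fitted 1 mean per group, with Benjamini-Hochberg adjustment over all probes tested. The script was tested on simulated data. The planned normexp setting used gMedianSignal, since gMeanSignal is not among the columns used here. Named genes were up to 4 of each list, called ones first, then by the largest difference in naringenin against control, and the 3 RefSeq genes and 3 lincRNA elements closest to each gene; H2al2b, Obox2 and the chromosome 9 neighbours lie outside that rule and were named after their values were seen, to complete the lists. The members and lists were chosen with earlier results of these data known. Replicate numbers were not used to pair the samples in the main fit. Promoters were compared with Biopython 1.88.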

Additional observations from a re-analysis of the deposited data

How the results depend on the processing

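Of 171 alternative values of the 9 differences of Pramel37, Pramel39 and Nlrp4g, 45 could not move by their construction (an array of the group not compared left out, the replicate block, the deposited copy of the values). Of the other 126, 113 stayed within 1 SD of the reported value, 12 moved by more and 1 reversed. Some of the 126 repeat a value, as within scan 3, scan as a block and without naringenin 3 do. The SD is that of the groups compared and can be wide. For Pramel37 in naringenin minus CaPO4 it was 1.31, so 0.98 without CaPO4 1 counted as staying with 1.89. The reversed value was Nlrp4g in naringenin minus CaPO4 without scaling, 0.59. Without scaling, Nlrp4g moved to -1.74 in CaPO4 minus control and Pramel39 to 3.03 in naringenin minus CaPO4. Normexp gave 0.85 and 0.91 for Pramel37 and Pramel39 in CaPO4 minus control, 0.40 and 0.60 in naringenin minus CaPO4, 1.25 and 1.51 in naringenin minus control, and -1.04 for Nlrp4g in naringenin minus control. Scaling over probes detected on all arrays moved that last value to -1.54. Without CaPO4 2 and naringenin 3, a setting chosen after seeing the data, naringenin minus CaPO4 was 2.87 for Pramel39 and -1.15 for Nlrp4g. Leaving out each array gave 1.32 to 3.08, 0.98 to 2.75 and 3.83 to 4.37 for Pramel37 in the 3 comparisons, 1.41 to 2.68, 1.36 to 2.63 and 3.50 to 4.35 for Pramel39, and -0.87 to -0.21, -1.01 to -0.36 and -1.35 to -1.15 for Nlrp4g. The lowest Pramel values in CaPO4 minus control are those without CaPO4 2, where no array detected either gene, and show no direction. With the scanner's weaker detection test, Pramel37 was above background on 7 arrays and Pramel39 on 8, in place of 4; above the 99th percentile of negative controls both were on 3.

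The background of calls also depended on the setting. CaPO4 minus control had 7992 calls, 3568 over probes detected on all 9 arrays, 19759 without CaPO4 2 and naringenin 3, and 2776 to 11750 when each array was left out. Naringenin minus CaPO4 had 817 calls, 1421 with scaling to the array median, 294 without scaling, 1482 with quantile normalization, 223 with normexp, 416 with no filter, 381 over probes detected on all 9 arrays, 170 with scan as a block and 21770 without CaPO4 2 and naringenin 3. Within scan 3 limma gave 0 calls, with 4064 probes at an unadjusted p under 0.05. Leaving out each array gave 37 to 17085, with 17085 without CaPO4 2, 37 without CaPO4 3, 46 without CaPO4 1, 55 without naringenin 2, 75 without naringenin 1, 170 without naringenin 3 and 194 to 253 without a control. For CaPO4 minus control, the 3 counts without a control were 2776 to 3516. Naringenin minus control had 17116 calls, 9539 without scaling, 8591 over probes detected on all 9 arrays, 26115 without CaPO4 2 and naringenin 3, and 12145 to 22848 when each array was left out. Of the calls in CaPO4 minus control 47.0% were higher, against 63.8% with scaling to the array median, 32.4% with the percentile over detected probes and 2.75% without scaling; in naringenin minus CaPO4 it was 37.5%, against 21.1%, 54.0% and 98.3%. With the replicate number as a block there were 7483, 411 and 16946 calls in the 3 comparisons. Same-numbered arrays of different groups correlated from -0.41 to 0.45 in their deviations from the group means, and differently numbered ones from -0.46 to 0.45. This gave no sign that the numbers pair the arrays, but with 3 arrays per group it cannot exclude pairing. Causes of these changes were not tested.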
